A study of Oryza sativa Indica Group with 18 samples.

Results

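The auxin response genes of rice described here are the Aux/IAA repressors, the auxin response factors (ARF) and the SAUR genes. They were found by name: every gene whose symbol or synonym in the array annotation was IAA, ARF or SAUR followed by digits. The names matched 52 genes, of which 44 were measured, among 17905 genes on the array that a probe set measured alone. The 44 comprised 26 Aux/IAA genes, 17 ARF genes and 1 SAUR gene, SAUR39. The other 8 matched genes (ARF5, ARF6, ARF8, ARF19, ARF21, ARF25, IAA11 and IAA29) had no probe set of their own. Each gene was followed by 1 probe set, the one with the highest mean over the 18 arrays.

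Auxin is a growth hormone that is made mainly in young shoot tissue and moved from cell to cell by PIN carriers. It joins the TIR1 and AFB receptors to Aux/IAA proteins, which are then degraded. Aux/IAA proteins hold ARF transcription factors in check, so that their loss lets ARF proteins act on auxin-responsive genes, among them many Aux/IAA, GH3 and SAUR genes. ARF proteins bind DNA and either activate or repress transcription, depending on their middle region.

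The study profiled whole seedlings of 2 indica rice cultivars, Annapurna and IR64, grown hydroponically for 7 days. Each cultivar had 3 groups of 3 arrays: controls kept 3 h at 28 °C, seedlings held 1 h at 37 °C, and seedlings held 1 h at 37 °C and then 2 h at 42 °C, here called the 42 °C group. Heat was given at about 40% relative humidity, and the replicates are labelled as biological. No humidity is given for the controls, so a humidity difference, if any, cannot be told apart from heat in comparisons with control. The series title contrasts a heat-tolerant with a heat-susceptible cultivar without saying in the title which is which. The 37 °C groups ended after 1 h and the other groups after 3 h, so temperature and elapsed time cannot be told apart in any comparison with the 37 °C groups.

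Values are deposited linear array intensities. Differences are on the scale of log2(intensity + 16), given ± SE, and were tested with limma across all probe sets. A gene was called when its Benjamini-Hochberg adjusted p was under 0.05 and its difference was at least 2-fold, which is 1 on the log2 scale. Intensities of different probe sets cannot be ranked against each other, and 3 arrays per group limit the precision. Fewer cells of a type and less RNA per cell cannot be told apart in whole seedlings.

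Arrays of a group correlated at 0.997 to 0.999 and arrays of different groups at 0.961 to 0.987. Shoot markers such as small-subunit Rubisco and chlorophyll-binding protein genes were present in every group, with summed intensities of 93419 to 124092. Root markers summed to 8097 to 9131, 9637 to 9926 and 18656 to 20165 in Annapurna control, 37 °C and 42 °C seedlings, and to 11602 to 13302, 8589 to 8989 and 5004 to 5215 in the same IR64 groups. Of 6 root markers measured, HAK1 fell at 37 °C in both cultivars (-1.11 in Annapurna and -1.16 in IR64) and OsSCR1 fell in Annapurna (-1.16). NAS1 and NAS2 made up most of each root marker sum. In Annapurna their means rose from 5666 and 1264 in controls to 6700.5 and 2241 at 37 °C, not called. In IR64 they fell from 9175 and 2364 to 6880.3 and 1372, also not called. The grain marker sum was highest in IR64 at 42 °C (12062 to 13669). The amylase AMY1.1 made up most of it there, with a mean of 9349.8. AMY1.5 and EP3A also had their highest means there, at 46.8 and 46.3. GLB1 had its highest mean in Annapurna at 42 °C (3122, against 2810.2 in IR64). AMY1.3 had its highest mean in IR64 at 37 °C (668, against 93.0 at 42 °C), and GLUA2 in Annapurna controls (347). IR64 control replicate 3 stood apart, with a grain marker sum of 4373, against a group median of 866. The 18S ribosomal RNA probes had medians of 512 in Annapurna and 427 in IR64 at 37 °C, against 174 and 156 in the controls of these cultivars. The part of these marker and RNA differences in the results below was not tested.

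At 37 °C more of these genes fell than rose, and the falls lay mainly among the ARF genes. In Annapurna 10 of 44 were called, 3 higher and 7 lower. That is 22.7% of the members, against 10.3% of all genes in the same comparison. In IR64 5 were called, 2 higher and 3 lower, or 11.4%, against 9.22% of all genes. At 42 °C against control 4 were called in Annapurna, 1 higher and 3 lower, or 9.09% against 8.90% of all genes. In IR64 at 42 °C 1 was called, lower, or 2.27% against 11.5% of all genes. The shares at 42 °C in Annapurna and at 37 °C in IR64 were near those of all genes. Over all 11 comparisons 13 members were called at least once and 31 were not. The share of all genes called at least once was not computed, so these counts cannot be set against it.

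**Figure D1:**
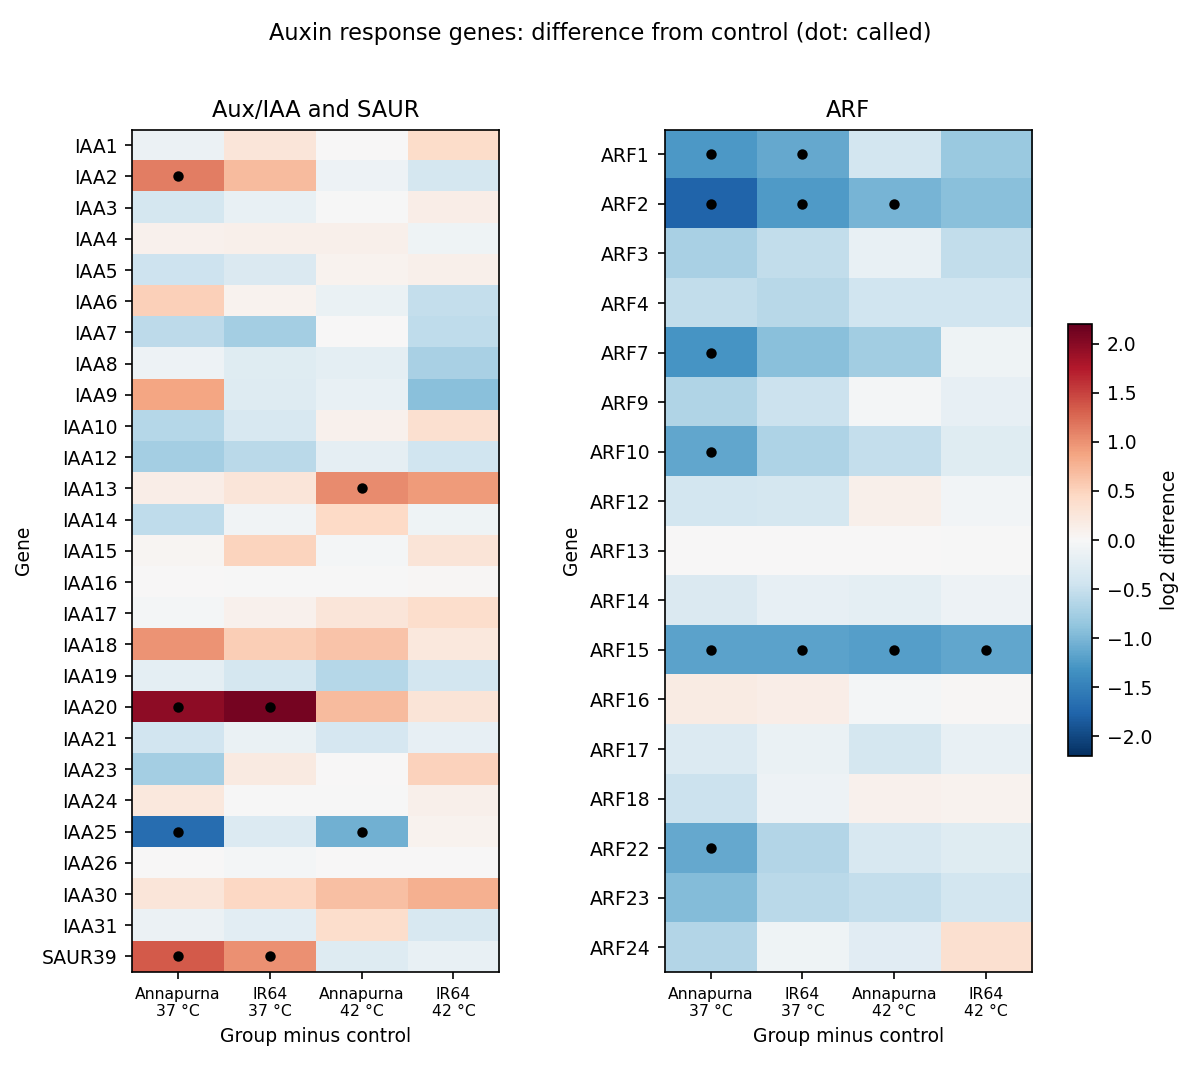
Difference from control of the 44 auxin response genes (rows), on the log2(intensity + 16) scale, in Annapurna and IR64 at 37 °C and 42 °C (columns). Red is higher and blue lower than control, and a dot marks a called difference. ARF15 is called in all 4 columns, and ARF genes hold 6 of the 7 called falls in Annapurna at 37 °C.

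Among the ARF genes, none rose by the 2-fold rule in any of the 4 comparisons with control. In Annapurna at 37 °C 6 of 17 fell, against 4.75% of all genes called lower. In IR64 at 37 °C 3 of 17 fell, against 4.07% of all genes. With limma at an unadjusted p under 0.05 and no fold threshold, 1 ARF gene was higher in Annapurna and 0 in IR64 at 37 °C, and 0 and 1 at 42 °C. The shares of all genes higher by that rule were 26.1% and 29.1% at 37 °C and 28.0% and 38.6% at 42 °C in Annapurna and IR64. The median ARF difference at 37 °C was -0.66 in Annapurna and -0.54 in IR64, where the median over all genes was -0.01 in each cultivar. The shift was broad and mostly under 2-fold. By adjusted p alone, 15 of 17 were lower in Annapurna and 12 of 17 in IR64, against 32.5% and 34.6% of all genes. Among genes with a mean intensity of at least 50, a limit chosen after the values were seen, it was 14 of 15 ARF genes against 38.2% of genes in Annapurna, and 11 of 15 against 35.9% in IR64.

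**Figure D2:**
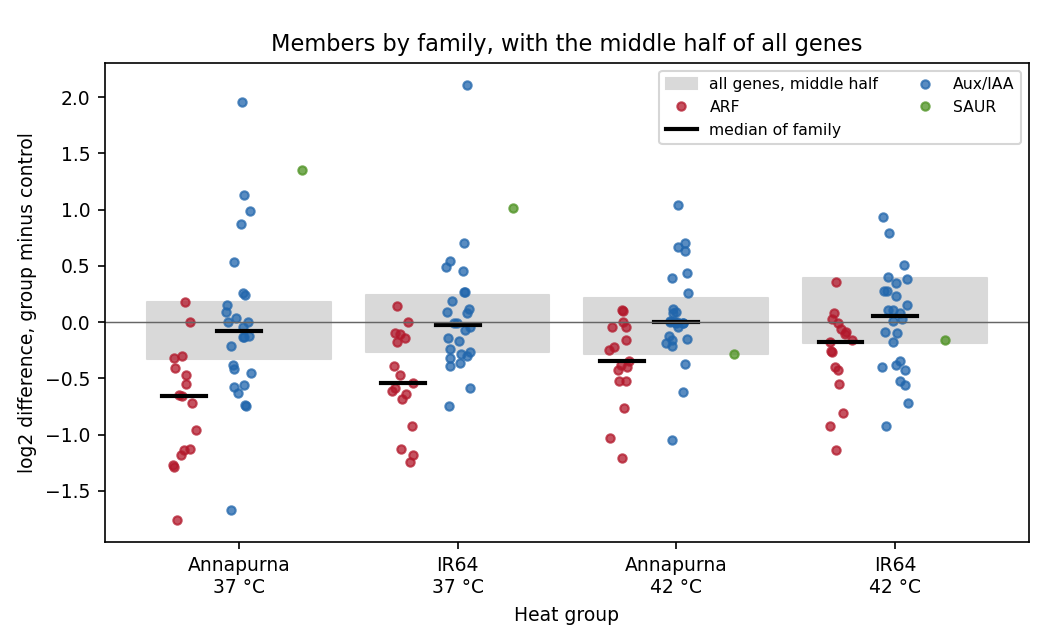
Difference from control on the log2(intensity + 16) scale (vertical) of each member, in the 4 heat groups (horizontal). Points are genes coloured by family, black bars are family medians, and grey boxes span the 25th to 75th percentile of all genes. The ARF medians of -0.66, -0.54 and -0.35 lie below the grey boxes at 37 °C in both cultivars and at 42 °C in Annapurna, while the Aux/IAA medians lie inside them.

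ARF15, also named OsETTIN1, and ARF2, also named OsETTIN2, belong to the ETTIN type of ARF genes, whose transcripts are cut through trans-acting small RNAs. ARF15 had intensities of 1469, 1461 and 1423 in Annapurna at 37 °C and 1412, 1385 and 1470 at 42 °C, against 3418, 3337 and 3169 in Annapurna controls. In IR64 it had 977, 994 and 995 at 37 °C and 994, 994 and 1072 at 42 °C, against 2142, 2348 and 2305 in controls. Each heated array lay below every control array of its cultivar. The fall was nearly the same size at each step and in each cultivar: -1.18 ± 0.041 in Annapurna and -1.18 ± 0.041 in IR64 at 37 °C, and -1.21 ± 0.041 and -1.14 ± 0.041 at 42 °C (limma adjusted p between 1.8e-11 and 2.9e-11). The difference between the cultivars' responses was 0.00 at 37 °C and -0.07 at 42 °C, and neither was called.

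ARF2 fell further at 37 °C and lay partway back at 42 °C. Its intensities in Annapurna were 621, 500.5 and 556 in controls, 153, 145 and 162 after the 37 °C step, and 273, 281 and 243 after the 42 °C step. In IR64 they were 459, 413 and 412 in controls, 155, 175 and 186 after the 37 °C step, and 225, 210.3 and 221 after the 42 °C step. The 3 groups of a cultivar did not overlap. Its differences from control were -1.76 ± 0.082 (adjusted p 4.7e-10) in Annapurna and -1.24 ± 0.082 (adjusted p 2.4e-08) in IR64 at 37 °C. At 42 °C the difference was -1.03 ± 0.082 in Annapurna, which was called, and -0.92 in IR64, which was not. The Annapurna value at 42 °C was -0.95 without Annapurna control replicate 1, -0.97 without Annapurna 42 °C replicate 3 and -0.92 with 64 added, under the limit in each. A second ARF2 probe set gave -1.31 and -1.25 at 37 °C in Annapurna and IR64, both called, and -0.62 at 42 °C in Annapurna, not called.

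The other ETTIN-type genes had smaller values. ARF3 was at -0.72 in Annapurna and -0.54 in IR64 at 37 °C, not called. ARF14 stayed at or below 34.3 on every array.

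ARF1, which also carries the name OsARF16, fell at 37 °C in both cultivars. It had 156, 133 and 140 in Annapurna at 37 °C, against 343, 354 and 409 in controls, and 196, 198 and 203 in IR64 at 37 °C, against 425, 416 and 529 in controls. The groups did not overlap, and the differences were -1.27 ± 0.14 (adjusted p 3.6e-06) and -1.13 ± 0.14 (adjusted p 1.3e-05). At 42 °C it was at -0.40 in Annapurna and -0.81 in IR64, not called.

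ARF7 had 390.1, 459 and 417 in Annapurna at 37 °C, against 1006, 1114 and 1031 in controls, a fall of 1.29 on the log2 scale (SE 0.064, adjusted p 9.5e-10). In IR64 it had 341, 339 and 374 at 37 °C, against 634, 717 and 684 in controls. The IR64 groups did not overlap either, but the difference of -0.92 missed the 2-fold limit. At 42 °C IR64 arrays were at 625, 639.9 and 640, within or just below the control range, and the difference was -0.09.

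**Figure D3:**
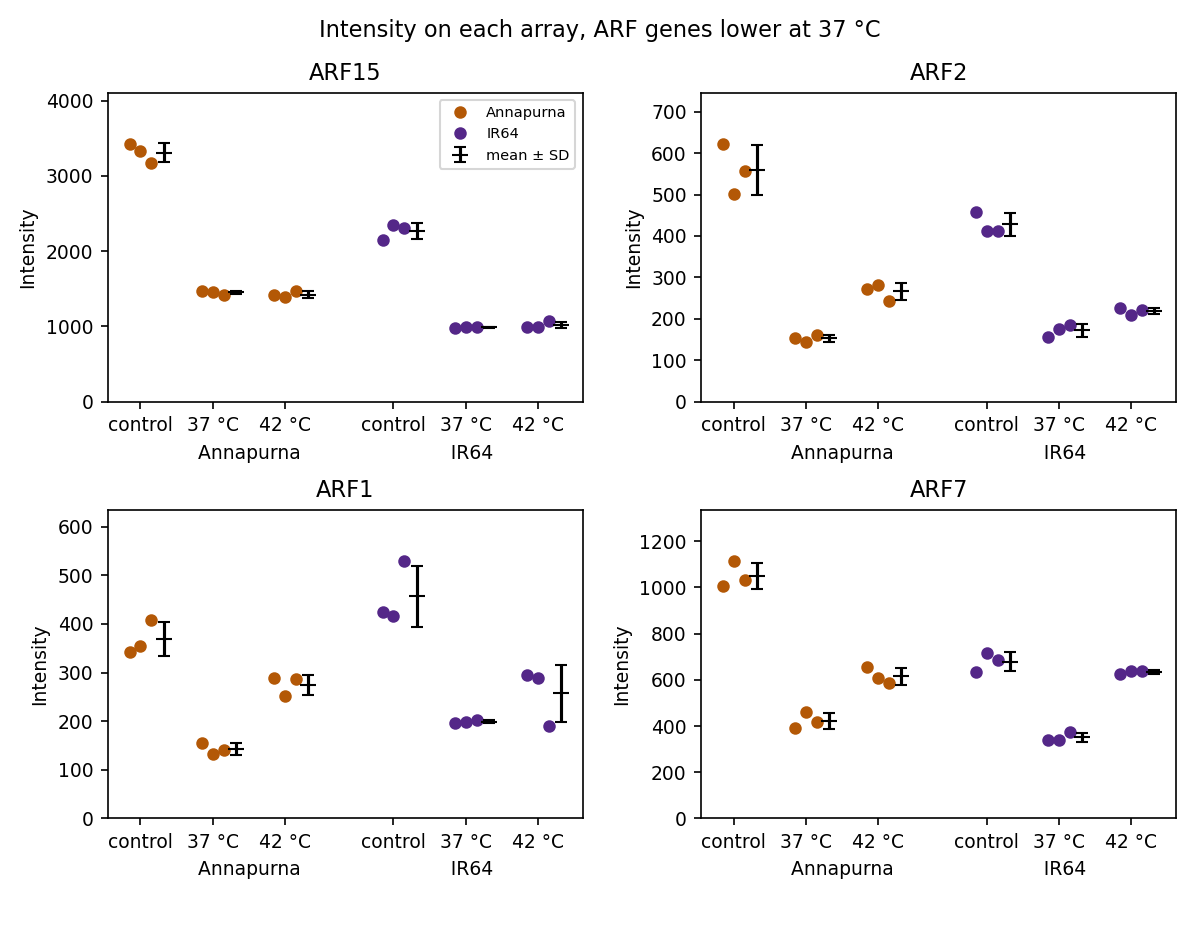
Intensity (vertical, linear, from 0) on each array of ARF15, ARF2, ARF1 and ARF7 in control, 37 °C and 42 °C seedlings (horizontal), Annapurna on the left and IR64 on the right. Points are arrays, and black marks are the mean ± SD of 3. ARF15 stays low at 42 °C in both cultivars, with means of 1422 and 1020, while ARF2 lies between its 37 °C and control values.

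ARF10, ARF18 and ARF22 are known targets of microRNA160 in rice. ARF10 had 54.2, 62.0 and 67.6 in Annapurna at 37 °C, against 169, 132 and 163 in controls, and fell by 1.14 on the log2 scale. With 64 added in place of 16 its difference was -0.80, under the limit. ARF22 had 429, 430.4 and 434, against 936, 972 and 982, and fell by 1.13; it is named for completeness, after its value was seen. In both genes the Annapurna groups did not overlap. In IR64 ARF10 and ARF22 were at -0.68 and -0.64, not called. ARF18 was at -0.47 in Annapurna and -0.11 in IR64. The 3 measured ARF genes of the activator type, ARF12, ARF16 and ARF17, ranged from -0.41 to 0.18 in Annapurna and from -0.39 to 0.14 in IR64 at 37 °C, with 0 called. These subgroups follow background knowledge of the family and were drawn up with the values known, so no test was made between them.

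ARF4, named with ARF15 because their probe sets were the brightest of the family, was at -0.55 in Annapurna and -0.61 in IR64 at 37 °C and at -0.43 in both at 42 °C, not called. ARF23 and ARF24, known in rice to regulate a formin that organises actin, were at -0.96 and -0.65 in Annapurna and -0.59 and -0.10 in IR64 at 37 °C, also not called. ARF9 was at -0.66 and -0.47 in the same groups. ARF13 stayed at about 4 on all arrays, near background. The 9 ARF genes above background that were called in no comparison ranged from -0.96 to 0.36 across the 4 heat groups.

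From 37 °C to 42 °C the ARF genes lay higher as a group, with every difference under 2-fold. By adjusted p alone 11 of 17 were higher and 1 lower in Annapurna, against 29.0% and 22.6% of all genes. In IR64 10 of 17 were higher and 1 lower, against 38.2% and 26.2%. Their median difference of 42 °C minus 37 °C was 0.52 in Annapurna and 0.19 in IR64, against 0.01 and 0.05 over all genes, and 13 of 17 were above 0 in each cultivar. By the 2-fold rule none was called, where 9.14% of all genes in Annapurna and 6.45% in IR64 were. With limma at an unadjusted p under 0.05, 11 of 17 ARF genes were higher and 1 lower in each cultivar, where 33.5% of all genes were higher and 25.9% lower in Annapurna, and 39.7% higher and 27.5% lower in IR64. At 42 °C against control the medians were -0.35 in Annapurna and -0.18 in IR64.

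The Aux/IAA genes showed no common direction. Their medians were -0.08 and -0.02 at 37 °C and -0.00 and 0.06 at 42 °C in Annapurna and IR64. A few members were called: IAA20 and IAA2 rose at 37 °C, IAA13 rose at 42 °C, and IAA25 fell at both heat steps in Annapurna.

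IAA20 had the largest fitted rise among the members in both cultivars. It had 203, 139 and 166 in Annapurna at 37 °C, against 29.3, 33.7 and 30.8 in controls, and 320.0, 207 and 289 in IR64 at 37 °C, against 63.2, 55.0 and 34.4 in controls. The groups did not overlap, and the rises were 1.96 ± 0.18 (adjusted p 8.3e-07) and 2.11 ± 0.18 (adjusted p 4.2e-07). The Annapurna controls and 1 IR64 control lay below 50, near background, so the sizes depend on the added intensity: they were 2.39 and 2.42 with 1 added in place of 16, and 1.28 and 1.54 with 64 added, all called. At 42 °C it was at 58.4, 65.3 and 58.4 in Annapurna and 54.9, 78.9 and 59.8 in IR64. The Annapurna 42 °C arrays lay above all Annapurna controls, at a difference of 0.70 that was not called. Relative to 37 °C it fell by 1.26 in Annapurna and by 1.83 in IR64 on the log2 scale.

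SAUR39, which in rice is a negative regulator of auxin synthesis and transport, was also highest at 37 °C. In Annapurna it had 76.3, 80.0 and 66.3 in controls, 208, 229.6 and 201 after the 37 °C step, and 51.0, 63.0 and 60.9 after the 42 °C step. In IR64 it had 129, 125 and 66.9 in controls, 231, 225 and 216 after the 37 °C step, and 106, 81.9 and 85.3 after the 42 °C step. The 37 °C arrays lay above all others of their cultivar, and the Annapurna 42 °C arrays lay below all Annapurna controls, at a difference of -0.28 that was not called. The rise at 37 °C was 1.35 ± 0.17 (adjusted p 1.5e-05) in Annapurna and 1.01 ± 0.17 (adjusted p 2.4e-04) in IR64. The low IR64 control value is replicate 3, and without that array the IR64 rise was 0.75 and no longer called. The IR64 rise was also under the limit without IR64 37 °C replicate 1 (0.99), with 64 added (0.78) and with quantile normalization (0.96). From 37 °C to 42 °C it fell by 1.63 in Annapurna and by 1.17 in IR64.

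IAA2 had 3664, 3705 and 3685 in Annapurna at 37 °C, against 1468, 1687 and 1913 in controls, a rise of 1.13 ± 0.093 (adjusted p 2.1e-07). In IR64 it had 4456, 3986 and 4144 at 37 °C, against 2741, 2398 and 2591 in controls. The IR64 groups did not overlap, and the difference of 0.70 was under 2-fold. IAA2 then fell by 1.25 in Annapurna and by 1.08 in IR64 at 42 °C relative to 37 °C. Members called at 37 °C in both cultivars numbered 5: IAA20 and SAUR39, which rose, and ARF1, ARF2 and ARF15, which fell. The share of all genes called in both was not computed, so this count cannot be set against it. With 64 added in place of 16 the IR64 values of ARF1 (-0.98) and SAUR39 (0.78) were under the limit.

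**Figure D4:**
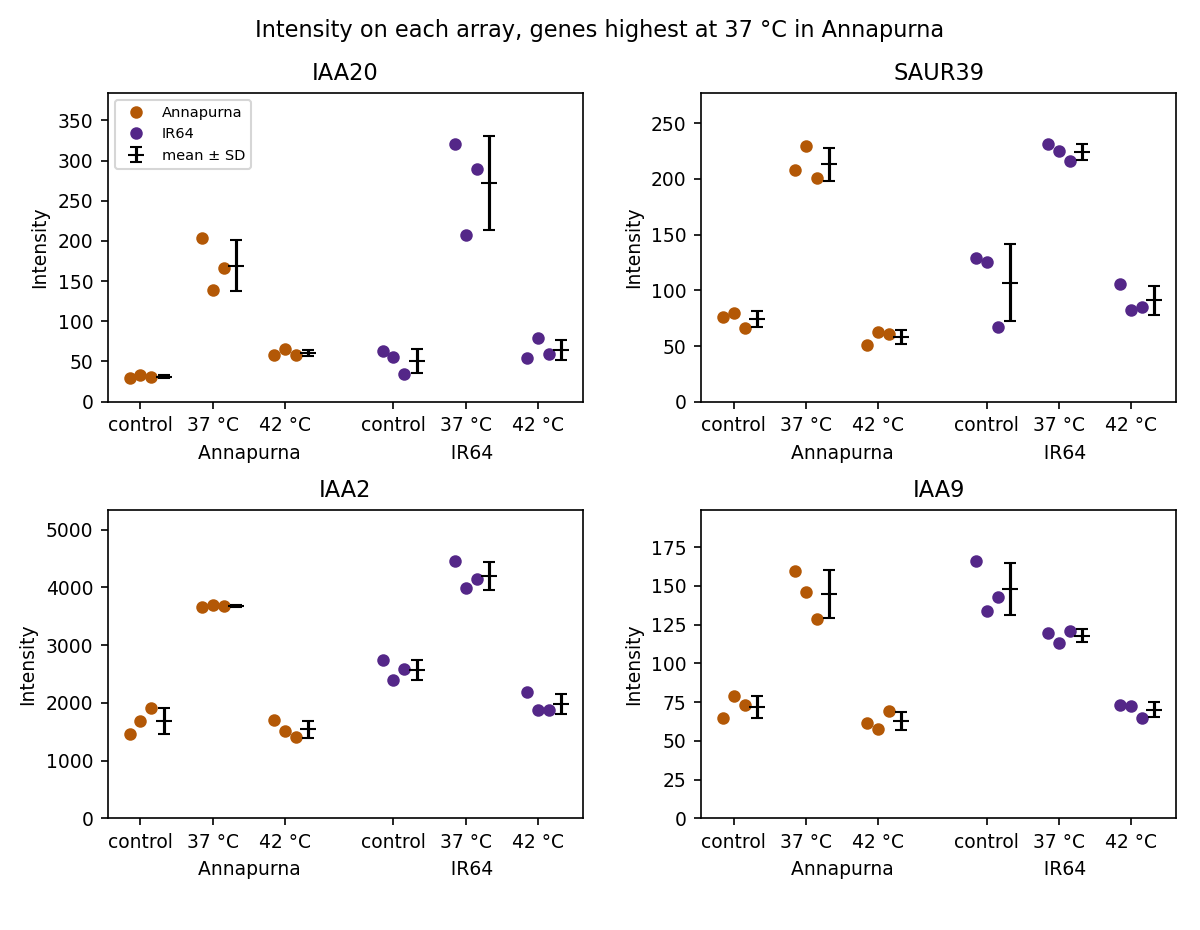
Intensity (vertical, linear, from 0) on each array of IAA20, SAUR39, IAA2 and IAA9 in control, 37 °C and 42 °C seedlings (horizontal), Annapurna on the left and IR64 on the right. Points are arrays, and black marks are the mean ± SD of 3. IAA20, SAUR39 and IAA2 peak at 37 °C in both cultivars, while the IAA9 mean at 37 °C is 145 against 72.1 in Annapurna controls and 118 against 148 in IR64 controls.

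IAA13, also named IAA1, was the only member to rise by the 2-fold rule at 42 °C. It had 7587, 7325 and 7828 in Annapurna at 42 °C, against 4040, 3263 and 3747 in controls, a rise of 1.04 ± 0.062 (adjusted p 7.7e-09). IR64 showed a similar difference of 0.93, just under the limit, with means of 12118 ± 332 at 42 °C and 6339 ± 322 in controls (SD, n = 3 each). The groups did not overlap in either cultivar. Without Annapurna control replicate 2 the Annapurna value was 0.96.

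Of the remaining Aux/IAA genes, IAA17 and IAA3 had the brightest probe sets, which does not order their transcript levels. IAA17 had differences from control of -0.04 and 0.09 at 37 °C and 0.26 and 0.38 at 42 °C in Annapurna and IR64. IAA3 was at -0.38 in Annapurna at 37 °C by its brightest probe set. Its second probe set, with intensities of 80.6 to 354, gave 1.75 there and 1.39 at 42 °C, both called, so that the direction for IAA3 in Annapurna is not settled. The second probe set was also called higher in Annapurna than in IR64 at 37 °C (1.25) and for the differences of responses at 37 °C (1.29, adjusted p 8.3e-06) and 42 °C (1.00, adjusted p 3.9e-05), where the brightest one gave -0.19, -0.21 and -0.16, not called. IAA18 was at 0.99 in Annapurna at 37 °C, just under the limit. IAA4, IAA16 and IAA26 stayed at or below 50 on all arrays. The 17 Aux/IAA genes above background that were called in no comparison ranged from -0.75 to 0.99 across the heat groups.

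By the 2-fold rule few members differed in level between the cultivars. In controls 1 member was called between Annapurna and IR64, or 2.27% against 6.17% of all genes. At 37 °C it was again 1 member, against 5.45% of all genes. At 42 °C the 2-fold rule called 0, against 5.60% of all genes; with limma at an unadjusted p under 0.05 and no fold limit 17 of the 44 members were higher and 13 lower in Annapurna, against 22.0% and 28.9% of all genes.

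Differences under 2-fold were common, and among the ARF genes they ran mostly one way, with Annapurna above IR64. In controls the median ARF difference was 0.37, against 0.04 over all genes. By adjusted p alone 12 of 17 ARF genes were higher and 2 lower in Annapurna controls, against 36.3% and 27.3% of all genes. At 42 °C the median was 0.26, against -0.00 over all genes, with 9 of 17 higher and 1 lower, against 17.4% and 22.5% of all genes. Among genes with a mean intensity of at least 50, 11 of 15 ARF genes were higher in Annapurna controls, against 42.9% of genes, and 9 of 15 at 42 °C, against 20.2%. At 37 °C the median was 0.00, with 9 of 17 above 0. After quantile normalization the ARF medians were 0.28, -0.02 and 0.32 in control, 37 °C and 42 °C seedlings. The largest of these differences in controls was 0.68, in ARF23, and ARF15 was at 0.54, 0.55 and 0.47 in the 3 conditions.

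The member called in controls and at 37 °C was IAA31. It had 2245, 2154 and 2526 in Annapurna controls, against 5566, 4697 and 4958 in IR64 controls, and 2243, 2035 and 2057 in Annapurna at 37 °C, against 4421, 4125 and 4338 in IR64 at 37 °C. The cultivars did not overlap, and the differences were -1.13 ± 0.096 (adjusted p 4.8e-07) and -1.02 ± 0.096 (adjusted p 1.6e-06). The 37 °C call was lost without Annapurna 37 °C replicate 2 (-0.99) and, just under the limit, without IR64 37 °C replicate 1. At 42 °C the difference was -0.39. A second IAA31 probe set was near background at 4.80 to 5.06 and was not called. IAA30, the neighbour of IAA31 on chromosome 12 and named for that reason, was at -0.17, -0.35 and -0.29 in Annapurna relative to IR64 in control, 37 °C and 42 °C seedlings, not called.

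Among the probe sets that stand for the members, the cultivars' responses to heat differed by the 2-fold rule for IAA25 and IAA9. These genes have 1 probe set each. At 37 °C 2 members were called, or 4.55% against 2.82% of all genes, and at 42 °C 1 member, or 2.27% against 5.54%. IAA25 had 96.9, 92.3 and 93.0 in Annapurna at 37 °C and 158, 151 and 149.9 at 42 °C, against 349.6, 304 and 353 in Annapurna controls. In IR64 it had 128, 143 and 123 at 37 °C and 172, 159 and 197 at 42 °C, against 185, 156 and 157 in controls. The Annapurna heat arrays lay far below their controls, while in IR64 the 42 °C and control arrays overlapped. Annapurna fell by 1.67 at 37 °C and by 1.05 at 42 °C on the log2 scale, and the IR64 values were -0.30 and 0.08. The differences of responses were -1.37 ± 0.12 (adjusted p 3.4e-06) and -1.13 ± 0.12 (adjusted p 8.5e-06). Annapurna controls were at 0.95 relative to IR64 controls, under the limit.

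IAA9 had 159.7, 146 and 129 in Annapurna at 37 °C, against 64.7, 78.8 and 72.9 in controls, and 119.9, 113 and 121 in IR64 at 37 °C, against 166, 134 and 143 in controls. The groups did not overlap within either cultivar and ran in opposite directions. Neither response passed the 2-fold rule on its own, at 0.87 in Annapurna and -0.28 in IR64, but their difference did, at 1.15 ± 0.13 (adjusted p 4.7e-05). With 64 added in place of 16 it was 0.83, under the limit. In Annapurna at 42 °C IAA9 fell by 1.03 relative to 37 °C. That difference was -0.96 without Annapurna 37 °C replicate 1 and -0.98 without Annapurna 42 °C replicate 2, both under the limit. In IR64 at 42 °C IAA9 had 73.3, 72.4 and 64.5, below all IR64 controls, at a difference of -0.92 that was not called.

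**Figure D5:**
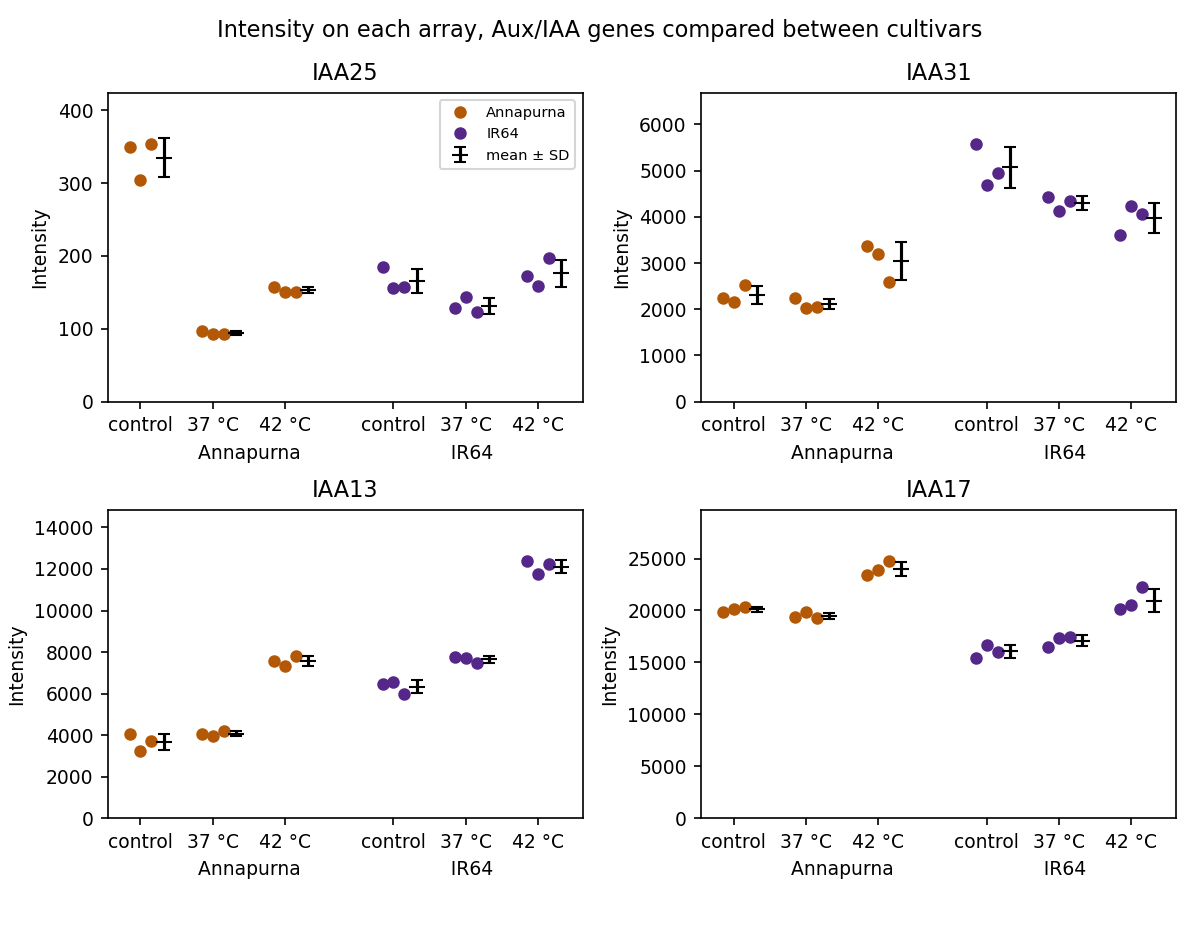
Intensity (vertical, linear, from 0) on each array of IAA25, IAA31, IAA13 and IAA17 in control, 37 °C and 42 °C seedlings (horizontal), Annapurna on the left and IR64 on the right. Points are arrays, and black marks are the mean ± SD of 3. IAA25 drops to means of 94.1 at 37 °C and 153 at 42 °C in Annapurna, against 335 in its controls, with IR64 between 131 and 176 throughout.

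The ARF genes had no called difference of response at 37 °C or 42 °C, against 2.82% and 5.54% of all genes. Their median was -0.17 at 37 °C and -0.07 at 42 °C, against -0.01 and -0.08 over all genes. With limma at an unadjusted p under 0.05 the Annapurna response at 37 °C was the higher one in 0 of 17 and the lower one in 7, against 17.1% and 21.7% of all genes. At 42 °C it was the higher one in 2 and the lower one in 3, against 23.8% and 36.0% of all genes.

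Other genes of the auxin pathway were followed through lists of synthesis, transport, receptor and co-repressor, conjugation and root initiation genes, of which 30 were measured. In Annapurna at 37 °C 5 rose and 3 fell, or 26.7% against 10.3% of all genes, and in IR64 2 rose and 3 fell, or 16.7% against 9.22%. At 42 °C 2 rose and 2 fell in Annapurna, or 13.3% against 8.90%. In IR64 at 42 °C 2 rose and 1 fell, or 3 of 30 genes against 11.5% of all genes, no more than the background. The largest rise was in OsWOX11, a homeobox gene known to activate crown root growth. It had 329, 326 and 347 in Annapurna at 37 °C, against 17.8, 19.9 and 14.1 in controls, and 130.3, 115 and 104 in IR64 at 37 °C, against 14.4, 13.9 and 15.5 in controls. The rises were 3.40 ± 0.098 and 2.11 ± 0.098, and their difference of 1.29 was called. All control arrays lay below 50, near background, so these sizes are not exact: with 1 and 64 added in place of 16 the rises were 4.21 and 2.29 in Annapurna and 2.91 and 1.20 in IR64, and their difference stayed above the limit under both. At 42 °C OsWOX11 was back at 18.2 to 20.4 in Annapurna and 17.3 to 25.8 in IR64, at differences from control of 0.08 and 0.25 that were not called.

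Of the 6 auxin transport genes measured, OsPIN5a fell at each heat step, with differences of -2.76 and -2.04 at 37 °C and -1.97 and -1.03 at 42 °C in Annapurna and IR64. OsPIN5 rose by 2.03 at 37 °C in Annapurna, with a difference of responses of 1.49. Its other arrays lay below 50, near background, and with 64 added the 2 values were 1.17 and 0.95. OSPIN10a, also named PIN3A, rose by 1.11 in Annapurna at 37 °C and by 1.25 and 1.18 at 42 °C in Annapurna and IR64. OsPIN2, a root carrier, fell by 1.15 in IR64 at 37 °C, and OsPID, a kinase that acts on PIN carriers, fell by 1.13 in Annapurna at 37 °C. In the other cultivar these genes moved the same way at 37 °C without being called. Control and 37 °C means were 73.7 and 34.1 for OsPIN2 in Annapurna, and 76.1 and 53.8 for OsPID in IR64. For OSPIN10a in IR64 they were 105 and 210.1, not called. Only OsPIN5 had a called difference of responses at 37 °C.

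Of the 17 conjugation and oxidation genes, GH3.2, an auxin-conjugating enzyme, rose by 1.54 in Annapurna and by 1.37 in IR64 at 37 °C and by 1.29 in IR64 at 42 °C. GH3.7 fell at 37 °C in Annapurna (-1.07) and IR64 (-1.30), and at 42 °C in Annapurna (-1.14). ILL8, of the family that releases auxin from conjugates, rose by 1.56 and 1.60 in Annapurna at 37 °C and 42 °C. Its Annapurna controls, at 21.0 to 24.9, lay near background, and with 64 added the differences were 0.90 and 0.93. ILL3, of the same family, was lower in Annapurna than in IR64 in each condition, with differences of -2.54, -2.06 and -2.91 in control, 37 °C and 42 °C seedlings. GH3.5 in this list is also named JAR1 and is known to act on jasmonate. The synthesis list held 2 genes, FIB and OsYUCCA1, with 37 °C differences of -0.90 and 0.04 in Annapurna and -0.51 and 0.28 in IR64, not called. FIB was called lower in Annapurna than in IR64 at 37 °C, with means of 231 against 539. In controls it had 447 against 776, not called. The 3 genes of the receptor and co-repressor list had median differences from control of 0.16 and 0.03 at 37 °C in Annapurna and IR64. At 42 °C the medians were 0.02 and 0.23. These medians do not show OsTPR2, whose means at 37 °C rose from 1762 to 3239 in Annapurna and from 1389 to 2653 in IR64, not called. At 42 °C its means were 1786 and 1677. TPR3 had control and 37 °C means of 2509 and 2391 in Annapurna, and 1997 and 2038 in IR64. The entry ASP1 in this list carries names of an aspartic protease.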

How the data were processed

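Per the labels' protocols, total RNA of whole seedlings was extracted with Trizol, labelled with biotin from 500 ng by 3' in vitro transcription, and hybridised to Affymetrix rice arrays. Each deposited value is a probe set's intensity on a linear scale. The submitters' processing notes name GCOS; its algorithm and scaling are not given in the sources used here. Of 57381 probe sets, 123 controls were left out; 22436 had 1 gene in the platform annotation, 95 had several and 34727 had none. Intensities were used as deposited, and log2(intensity + 16) was fitted with limma 3.58.1 in R 4.3.3 (lmFit, then eBayes with trend) over 57258 probe sets, 6 groups and 18 arrays, with Benjamini-Hochberg adjustment. Array medians differed by at most 0.113 in log2 intensity and by 0.037 after adding 16. The plan set quantile normalization above 0.1; since the second value is on the scale tested, quantile normalization was kept as an alternative. The fit was tested on simulated data for Annapurna at 37 °C against control and called all 200 changed probe sets. All planted changes were larger than the 2-fold limit, so calls close to that limit were not tested. An exact permutation test of 3 against 3 arrays cannot go below 0.1.

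Members named were the 6 largest called changes each way per heat comparison, the 4 largest per cultivar comparison, the 2 of highest mean per family, and those whose probe sets disagree; others are named to account for all members. The members and lists were chosen with earlier results of these data known. Replicate numbers did not pair the arrays: same-number deviations correlated at a median of 0.005 (-0.195 to 0.171).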

Additional observations from a re-analysis of the deposited data

Results flagged for a closer look

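3 results were picked out because the heat response of Annapurna differed from that of IR64 by the limma test of the difference itself. IAA25 differed at 37 °C, with -1.67 in Annapurna and -0.30 in IR64, a difference of -1.37. IAA25 also differed at 42 °C, with -1.05 in Annapurna and 0.08 in IR64, a difference of -1.13. IAA9 differed at 37 °C, with 0.87 in Annapurna and -0.28 in IR64, a difference of 1.15. With 64 added in place of 16 the IAA9 difference was 0.83 and the 42 °C difference of IAA25 was -0.94, both under the limit, and with quantile normalization that of IAA25 at 42 °C was -0.96.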

How the results depend on the processing

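The 31 called values of the named members were recomputed under 27 alternatives. None reversed, 813 values kept their call, 24 missed it, and 18 of the 31 kept it under all alternatives. Of the 27 alternatives, 18 left out 1 array, which does not move a difference between groups that lack that array. Dropping the fold threshold cannot lose a call. The 813 therefore include many values that had little or no room to change. With 64 added in place of 16, members called fell to 3 at 37 °C in IR64 (1 higher, 2 lower), 2 at 42 °C in Annapurna (1 higher, 1 lower), 2 for 42 °C against 37 °C in Annapurna, 1 for the 37 °C difference of responses (IAA9 at 0.83) and 0 for the 42 °C one. With 1 added they were 2 at 42 °C in IR64 and 3 between control cultivars (1 higher, 2 lower). Quantile normalization gave 3 at 42 °C in IR64, 0 for the 42 °C difference of responses, 4 at 37 °C in IR64 (1 higher, 3 lower), and 5 for 42 °C against 37 °C in Annapurna (1 higher, 4 lower); IAA25 there was at -0.96 for the 42 °C difference of responses. Over all probe sets, it gave 1624 higher and 1786 lower calls in IR64 at 42 °C, against 2088 and 1473 as deposited, and 822 and 801 for the 42 °C difference of responses, against 615 and 1115. The mean over all probe sets of a gene gave 0 between cultivars in controls and 0 at 37 °C, since the second IAA31 probe set is near background. With no fold threshold 33 and 30 of 44 members were called at 37 °C in Annapurna and IR64, against 55.5% and 61.8% of all genes. At 42 °C it was 21 and 31, against 53.1% and 71.5%. For 42 °C against 37 °C it was 32 and 28, against 51.7% and 64.4%. Between cultivars it was 36, 25 and 23 in control, 37 °C and 42 °C seedlings, against 63.6%, 53.4% and 39.9%. For the differences of responses at 37 °C and 42 °C it was 18 and 19, against 21.4% and 55.9%. Leaving out 1 array at a time gave 10 to 11 and 4 to 5 at 37 °C, 3 to 4 and 1 to 1 at 42 °C, 3 to 5 and 3 to 3 for 42 °C against 37 °C, 1 to 2, 0 to 1 and 0 to 0 between cultivars, and 2 to 2 and 1 to 1 for the differences of responses. The fit with the replicate block gave the main counts in all 11 comparisons (10 at 37 °C in Annapurna), and 7 of 45 same-number pairs correlated above 0.1. The cause of the other changes was not tested. No scaling moved the median of all genes by over 0.1.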
